A study of Aconitum japonicum with 4 samples.

Results

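The transcripts TR46556|c4_g1_i1, TR54754|c2_g1_i2 and TR54749|c2_g1_i1 of *A. japonicum*, a poisonous and medicinal monkshood, are annotated as the plastid enzyme DXS (deoxyxylulose-phosphate synthase). They are 3 of the 8 DXS transcripts in the study's pathway table and 3 of the 129760 transcripts of the assembly. They were chosen for their different organ profiles, with 2 highest in the leaf and 1 highest in the daughter root, so their levels and the order of the tissues are a description of that choice and were not tested. All 3 were found by transcript name in the deposited table of each tissue.

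RNA came from greenhouse plants, with 1 library each for the leaf, rootlet, mother root and daughter root. The mother root is the older tuberous root and the daughter root the newly formed one beside it. Tissue of a single biological replicate was used for RNA, no treatment or genotype distinguishes the libraries, and every difference between tissues below therefore has no replicate check. The libraries held 4516426 fragments in leaf, 11801534 in the mother root, 12792781 in the daughter root and 4492151 in the rootlet, so that the tuberous root libraries were 2.63 and 2.85 times the size of the smallest.

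DXS joins pyruvate and glyceraldehyde 3-phosphate in the first step of the methylerythritol phosphate (MEP) pathway, which makes isopentenyl diphosphate inside plastids. Chloroplasts draw on this pathway for carotenoids and for the side chain of chlorophyll, and many plant diterpenes are also built from it, among them the skeletons from which *Aconitum* diterpene alkaloids are thought to derive. DXS is widely regarded as a step with strong control over the flux, and plants usually carry a small family of DXS genes whose members are used in different organs.

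Levels are given as FPKM, fragments scaled by transcript length and by the total of the library, which allows transcripts of different length to be compared. Ranges in parentheses are 95% limits, exact Poisson for a level and conditional binomial for a ratio. They reflect the counting of fragments alone and not differences among plants, and were not adjusted for the number of ratios. In whole tissue, fewer cells of a type and less RNA per cell cannot be told apart.

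TR46556|c4_g1_i1, 2463 bases long, had the highest FPKM of the 8 DXS transcripts in every tissue. It reached an FPKM of 213.3 (205 to 222) in the leaf, 14.2 (12.8 to 15.6) in the mother root, 14.6 (13.2 to 16.0) in the daughter root and 14.4 (12.2 to 16.9) in the rootlet. The leaf stood far above the 3 root tissues, and the limits of the root tissues overlapped one another. Leaf was 14.8-fold (13.7 to 16.1) over the mean of the roots, with 15.1-fold over mother root, 14.6-fold over daughter root and 14.8-fold over rootlet. Among all transcripts detected in leaf it ranked 599 of 96788 by FPKM, in the top 0.619%, while it lay in the top 11.0% of mother root, 11.0% of daughter root and 15.5% of rootlet. This transcript was thus among the abundant ones of the leaf and remained well measured in all roots, with 150 fragments in the shallowest of them.

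TR54754|c2_g1_i2, 2272 bases long and described as a chloroplast DXS, was the second leaf transcript. Its FPKM was 86.6 (80.8 to 92.7) in the leaf, 3.67 (2.96 to 4.50) in the mother root, 2.02 (1.52 to 2.63) in the daughter root and 0.31 (0.0639 to 0.906) in the rootlet. In contrast to TR46556|c4_g1_i1, its root levels were not alike, and the order ran from mother root over daughter root to rootlet. Mother root was 1.82-fold (1.29 to 2.59) over daughter root, and daughter root was 6.52-fold (2.12 to 32.6) over rootlet, where only 3 fragments were counted. The rootlet level is therefore known only roughly, and the ratio of leaf to rootlet, 279.5, had limits from 95.3 to 1358. Leaf was 43.3-fold (36.2 to 52.1) over the mean of the roots, 23.6-fold over mother root and 42.9-fold over daughter root. The ratio to the mean of the roots was 74.4 without the mother root library and was 30.5 without the rootlet library, so its size depended on which roots were averaged.

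TR54749|c2_g1_i1, 2213 bases long, was described by its top Blastx hit as DXS 3 and had a different profile at a lower level. Its FPKM was 6.22 (4.72 to 8.04) in the leaf, 5.74 (4.83 to 6.77) in the mother root, 10.8 (9.56 to 12.1) in the daughter root and 3.23 (2.18 to 4.61) in the rootlet. Daughter root was the highest and rootlet the lowest, with leaf and mother root between them. Daughter root was 1.88-fold (1.53 to 2.32) over mother root, 1.73-fold (1.3 to 2.34) over leaf and 3.34-fold (2.29 to 5.04) over rootlet. Leaf and mother root could not be ordered, since their ratio of 1.08 had limits from 0.784 to 1.48. Against the mean of the roots, leaf was at 0.945 (0.704 to 1.25), and without the daughter root library this ratio was 1.39. This profile spanned a much narrower range than that of the leaf transcripts.

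**Figure D1:**
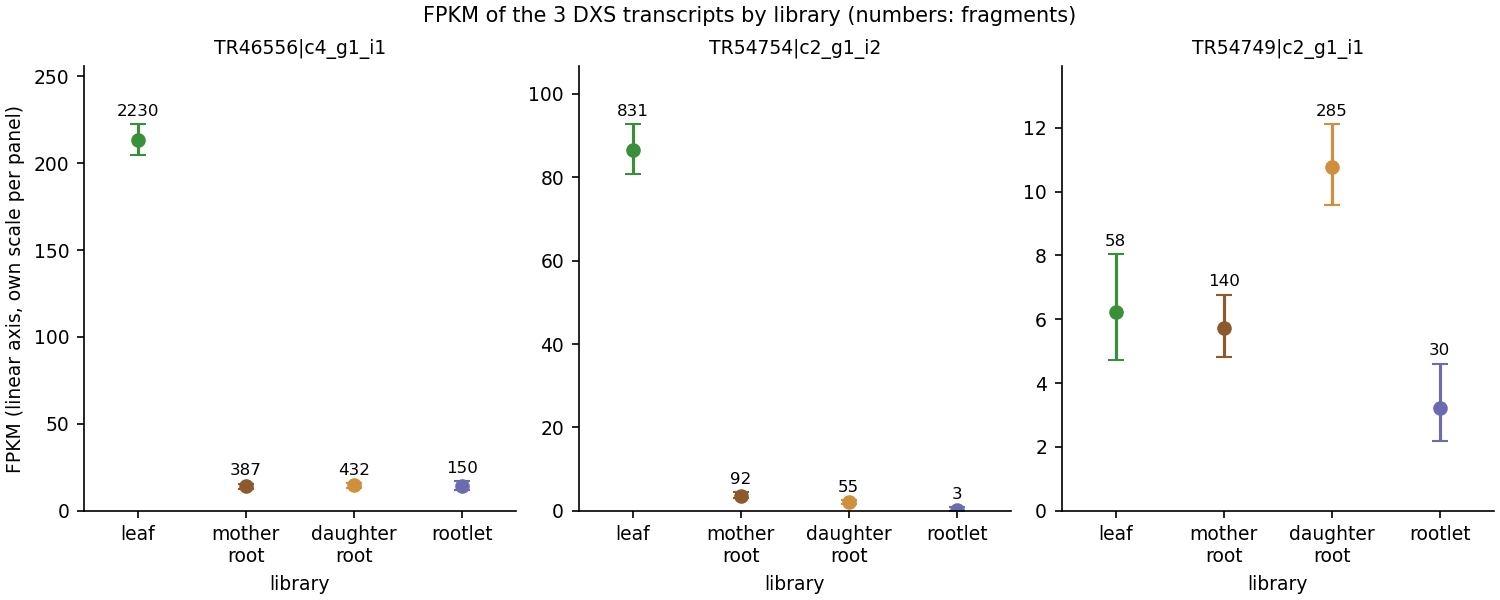
FPKM of the 3 DXS transcripts in each library, on a linear axis with its own scale per panel. Points are the single library of each tissue, bars are exact 95% Poisson limits and the numbers are fragments. TR46556|c4_g1_i1 stands at 213.3 in the leaf and near 14 in every root tissue, TR54754|c2_g1_i2 falls from 86.6 in the leaf to 0.31 in the rootlet, and TR54749|c2_g1_i1 is highest in daughter root at 10.8.

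The 3 transcripts changed their relation to one another from tissue to tissue. TR46556|c4_g1_i1 was 2.46-fold (2.27 to 2.67) over TR54754|c2_g1_i2 in leaf, 3.86-fold in the mother root, 7.22-fold in the daughter root and 46.5-fold (15.6 to 228.3) in the rootlet. The predominance of TR46556|c4_g1_i1 over the other leaf transcript was therefore smallest in the leaf itself. TR46556|c4_g1_i1 was 34.3-fold (26.4 to 45.3) over TR54749|c2_g1_i1 in leaf, but only 2.47-fold in the mother root, 1.35-fold (1.16 to 1.58) in the daughter root and 4.47-fold in the rootlet. In daughter root, the organ where TR54749|c2_g1_i1 was highest, the levels of the pair were closest. TR54749|c2_g1_i1 was 0.0718 times TR54754|c2_g1_i2 in leaf, and 1.56-fold (1.19 to 2.06) over it in mother root, 5.34-fold in the daughter root and 10.4-fold (3.24 to 53.4) in the rootlet. The order of this pair in leaf was thus the reverse of that in every root tissue. The 3 transcripts were chosen for maxima in leaf or daughter root, so nothing is read from these changes.

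The levels of TR46556|c4_g1_i1 in the root tissues were close to one another. Its highest root FPKM was 1.03 times its lowest, and only 19 of the 6928 transcripts with at least 100 fragments in each root library (0.274%) were as even, with a median ratio of 1.70. A spread this small is finer than counting error can resolve. Rootlet over mother root, for example, was 1.02 with limits from 0.838 to 1.23, so the rank is no measure of true evenness. The evenness measure was looked at after the values had been seen, and it depended on the scaling between libraries. With median-of-ratios factors the ratio of highest to lowest root was 1.19, and 779 transcripts (11.2%) were as even. Daughter root over mother root, 1.03 (0.896 to 1.18) as deposited, became 1.19 with limits from 1.03 to 1.37 under these factors.

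To place the ratios among all transcripts, 1 was added to each FPKM and the 122869 transcripts that reached an FPKM of 1 in any library were compared in the same way. All 3 DXS transcripts passed this filter. Leaf exceeded the mean of the roots at least 4-fold for 2 of the 3 and for 11.4% of all transcripts, and it lay at least 4-fold below that mean for 0 of the 3 and 5.5% of all. Daughter root exceeded mother root at least 1.5-fold for 1 of the 3, against 16.6% of all transcripts, and fell as far below it for 1 of the 3, TR54754|c2_g1_i2, against 31.1%. Since the transcripts were chosen on these levels, nothing is read from their counts. On this scale, TR46556|c4_g1_i1 had a log2 ratio of leaf to roots of 3.80, reached by 1.09% of all transcripts, and TR54754|c2_g1_i2 one of 4.87, reached by 0.435%. TR54749|c2_g1_i1, at -0.07, lay near the middle of the distribution, with 55.2% of all transcripts at or above it and a median of 0.16. For daughter root over mother root its log2 ratio, 0.81, was reached by 14776 of the 122869 transcripts, so a difference of that size was common in these libraries.

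**Figure D2:**
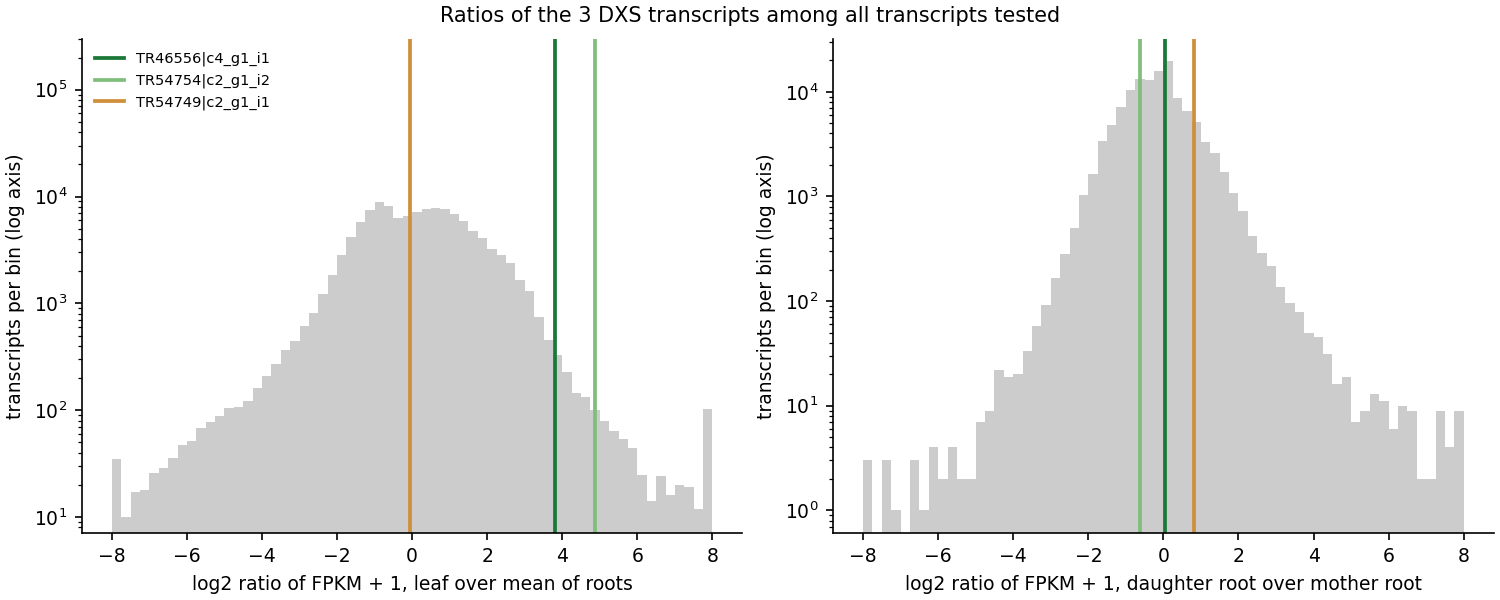
Log2 ratios of FPKM + 1 for the 122869 transcripts tested, leaf over the mean of the roots on the left and daughter root over mother root on the right, with the number of transcripts per bin on a log axis. Coloured lines mark the 3 DXS transcripts, and ratios beyond the axis are counted in the end bins. The leaf ratios of TR46556|c4_g1_i1 (3.80) and TR54754|c2_g1_i2 (4.87) lie in the right tail, and that of TR54749|c2_g1_i1 (-0.07) lies near the middle.

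The 5 other DXS transcripts of the pathway table were shorter, 526 to 1212 bases, and rested on 40 to 131 fragments over the 4 libraries. All 5 were listed highest in rootlet, where none of the 3 described transcripts was, but only TR11997|c0_g1_i1 was so beyond counting error. Rootlet over leaf was 1.21 (0.683 to 2.18) for TR44886|c0_g1_i2 and 1.08 (0.472 to 2.50) for TR36602|c0_g1_i1. Rootlet over mother root was 1.58 (0.703 to 3.39) for TR46556|c2_g1_i1 and 1.88 (0.902 to 3.83) for TR6122|c0_g1_i1. The share of all transcripts highest in rootlet is not given here. TR11997|c0_g1_i1 had an FPKM of 0 in the leaf, 5.36 in the mother root, 0.21 in the daughter root and 11.8 in the rootlet. TR6122|c0_g1_i1 had an FPKM of 0 in the leaf, 1.67 in the mother root, 0.29 in the daughter root and 3.14 in the rootlet. No fragment of this pair was counted in leaf, where the upper limits were an FPKM of 2.16 for TR11997|c0_g1_i1 and 0.768 for TR6122|c0_g1_i1. The remaining transcripts, TR44886|c0_g1_i2, TR36602|c0_g1_i1 and TR46556|c2_g1_i1, were at 7.75, 6.42 and 7.07 in the rootlet and at 6.38, 5.93 and 1.17 in the leaf. In mother root they were at 4.68, 4.01 and 4.48, and in daughter root at 3.0, 1.77 and 1.24. The 5 were listed below TR46556|c4_g1_i1 in each tissue, and all were below TR54749|c2_g1_i1 in daughter root. In rootlet, however, the limits of TR11997|c0_g1_i1 (7.18 to 18.2) and TR46556|c2_g1_i1 (3.65 to 12.3) overlapped those of TR46556|c4_g1_i1 (12.2 to 16.9).

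Summed over the 8 transcripts, DXS amounted to an FPKM of 319.7 in the leaf, 43.8 in the mother root, 33.9 in the daughter root and 54.1 in the rootlet. The sum was highest in leaf, while the order among the roots rested on the 3 shortest transcripts. Over the 5 DXS transcripts of at least 900 bases it was 312.6 in the leaf, 29.9 in the mother root, 30.7 in the daughter root and 28.9 in the rootlet, and the roots could not be ordered. Daughter root over mother root was then 1.03 (0.919 to 1.14), and daughter root over rootlet was 1.06 (0.903 to 1.26). The 3 described transcripts held 95.8% (94.2 to 97.0) of this sum in leaf, 53.8% (48.9 to 58.9) in the mother root, 80.8% (75.8 to 85.2) in the daughter root and 33.2% (27.5 to 39.6) in the rootlet. In rootlet most of the summed DXS level thus lay on the shorter transcripts, although TR46556|c4_g1_i1 alone still held 26.7%. TR54749|c2_g1_i1 contributed 31.8% of the sum in daughter root, but 1.95% in the leaf. The shares rest on length scaling of short transcripts. By fragments alone they were 98.8% in the leaf, 82.2% in the mother root, 93.5% in the daughter root and 67.0% in the rootlet, and among the 5 DXS transcripts of at least 900 bases they were 98.0%, 78.8%, 89.3% and 62.3%. The order of the tissues was the same on all of these scales, but on the latter scales the 3 transcripts held the larger part in rootlet too.

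**Figure D3:**
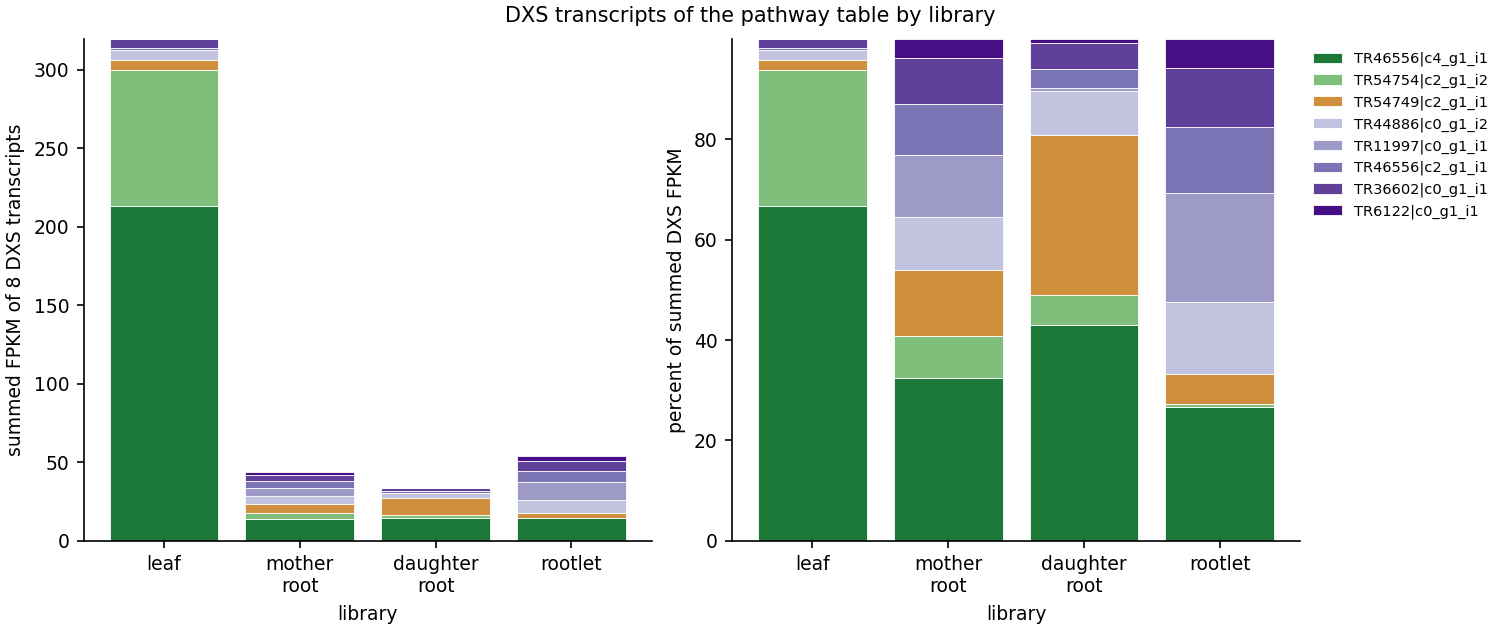
Summed FPKM of the 8 DXS transcripts by library on the left, and the share of each transcript in that sum, in percent, on the right. Green and orange mark the 3 described transcripts and purple the 5 others. The described transcripts hold 95.8% of the sum in leaf and 33.2% in the rootlet, and the orange band of TR54749|c2_g1_i1 is widest in daughter root at 31.8%.

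The sum of the 8 transcripts was 7.28-fold (6.70 to 7.92) higher in leaf than in the mean of the roots. For the 3 described transcripts this ratio was 13.3 (12.5 to 14.2), and for the 5 others it was 0.643 (0.437 to 0.924). The latter value rested on the rootlet library, without which it was 1.01 (0.682 to 1.46), and leaf was 2.07-fold (1.3 to 3.26) over daughter root for these 5. Over the longer transcripts alone the ratio was 10.5 (9.78 to 11.2) for all and 0.932 (0.574 to 1.46) for the others. The leaf excess of DXS therefore lay on TR46556|c4_g1_i1 and TR54754|c2_g1_i2, the transcripts chosen for it. Against the reductoisomerase DXR, the enzyme of the next step, summed DXS was 4.71-fold in the leaf, 1.20-fold in the mother root, 1.84-fold in the daughter root and 1.27-fold in the rootlet. Over DXS of at least 900 bases, the sum lay below DXR in mother root (29.9 against 36.4) and rootlet (28.9 against 42.6). It stayed above DXR in leaf (312.6 against 67.9) and daughter root (30.7 against 18.4). TR46556|c4_g1_i1 alone exceeded DXR 3.14-fold in the leaf, but was at 0.389 of its level in mother root, 0.792 in the daughter root and 0.339 in the rootlet.

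Transcripts were grouped by the TR number that opens a Trinity name. Within such a group, transcripts with different c numbers come from different read clusters. TR54754|c2_g1_i2 was the only transcript of its group. The group of TR46556|c4_g1_i1 held 2 more, both with another c number. They were the DXS transcript TR46556|c2_g1_i1 of 526 bases named above and TR46556|c3_g1_i1 of 432 bases. The latter had an FPKM of 4.68 in the leaf, 2.39 in the mother root, 3.29 in the daughter root and 9.42 in the rootlet. Both short transcripts of this group were listed highest in rootlet, unlike the long one, but on only 12 fragments each there. The group of TR54749|c2_g1_i1 held 5 more, of which 3 reached an FPKM of 5. Among these 3, only TR54749|c2_g2_i1 had the same c number. TR54749|c1_g1_i2, 622 bases long, was at 7.48 in the leaf, 1.25 in the mother root, 8.72 in the daughter root and 0.94 in the rootlet. TR54749|c0_g2_i1, of 386 bases, was at 14.0, 7.47, 9.49 and 1.87 in the same order, and TR54749|c2_g2_i1, of 267 bases, was at 5.60, 3.56, 0.65 and 1.87. Daughter root was listed highest for 1 of these 3 and leaf for the others. The leaf values of those others rest on 15 fragments for TR54749|c0_g2_i1, with 29 in daughter root, and on 3 for TR54749|c2_g2_i1. These counts are too few to order leaf and daughter root for them. No sequences were used here, and how reads shared by related DXS transcripts were divided among them was not tested.

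Set among the 18 MEP transcripts of the pathway table, TR46556|c4_g1_i1 ranked 4 in the leaf, 6 in the mother root, 8 in the daughter root and 7 in the rootlet. TR54754|c2_g1_i2 ranked 6 in the leaf and 15, 14 and 18 in these roots, and TR54749|c2_g1_i1 ranked 13 in the leaf, 10 in both tuberous roots and 14 in the rootlet. In leaf, the transcripts above TR46556|c4_g1_i1 were those of ISPH (369.3), ISPG (240.7) and the isopentenyl diphosphate isomerase (IPPI) TR42449|c0_g2_i1 (224.4), enzymes of the last steps. TR46556|c4_g1_i1 was thus close in level to IPPI in leaf, while in every root tissue these 3 transcripts stood far above it. Of the 15 other MEP transcripts, 1 was at least 4-fold higher in leaf than in the mean of the roots and 1 at least 4-fold lower, against the 11.4% and 5.5% of all transcripts. The one higher was ISPH, the reductase that releases the final products, at 4.17-fold (3.96 to 4.39), and the one lower was TR11997|c0_g1_i1. Neither passed the threshold without the rootlet library, nor did ISPH in TPM. The median log2 ratio of the 15 was 0.45, against 0.16 for all transcripts.

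For the other enzymes, leaf was 2.09-fold (1.89 to 2.31) over the mean of the roots for DXR, 1.68-fold for the cyclodiphosphate synthase ISPF and 2.31-fold for ISPG, which opens that ring. The kinase ISPE stood at 0.890 (0.685 to 1.14), and the 2 transcripts of ISPD, which attaches a cytidine group, at 1.18 (0.870 to 1.57) and 0.850 (0.645 to 1.11). The 3 transcripts listed as IPPI, the enzyme that interconverts the C5 products, of which 2 were described only as nudix hydrolase-like, lay between 1.5 and 2.59. All 10 transcripts past the DXS step had smaller leaf ratios than TR46556|c4_g1_i1 and TR54754|c2_g1_i2, which were chosen for a leaf maximum. Of the 10, 7 were highest in leaf, and the share of all transcripts highest there is not given here. The leaf ratio of TR54749|c2_g1_i1, 0.945, was in the range of ISPD and ISPE.

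**Figure D4:**
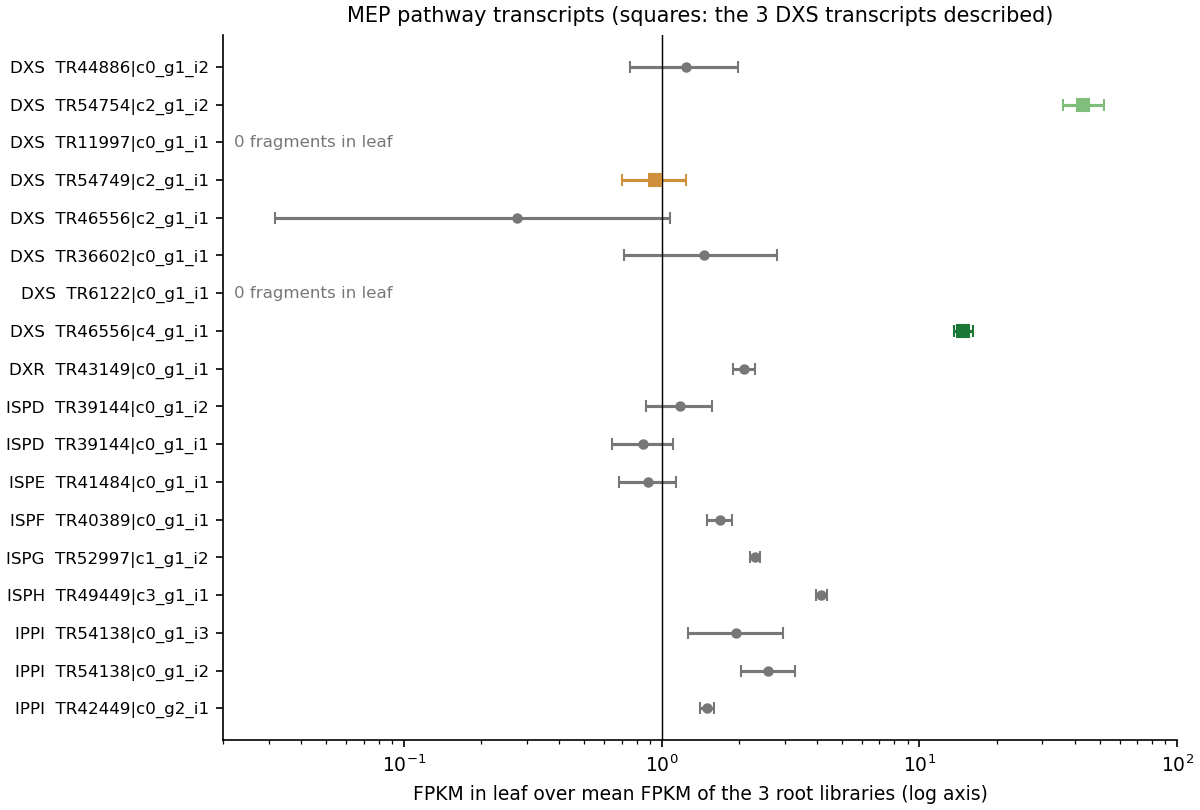
Ratio of FPKM in leaf to the mean FPKM of the 3 root libraries for the 18 MEP transcripts, on a log axis, with 95% limits for counting error. Squares are the 3 described DXS transcripts, and no ratio is drawn for 2 transcripts with 0 fragments in leaf. TR54754|c2_g1_i2 (43.3) and TR46556|c4_g1_i1 (14.8), chosen for a leaf maximum, lie to the right of every other transcript, of which ISPH is highest at 4.17.

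Between the tuberous roots, 3 of the 15 other MEP transcripts were at least 1.5-fold higher in daughter root and 6 at least 1.5-fold lower, against 16.6% and 31.1% of all transcripts. Their median log2 ratio was -0.49, against -0.10 for all. The transcripts higher in daughter root were both of ISPD, at 1.82-fold (1.43 to 2.31) and 1.98-fold (1.64 to 2.40), and the IPPI transcript TR54138|c0_g1_i3, at 2.27-fold (1.44 to 3.66). The ratio of TR54749|c2_g1_i1, 1.88, lay within this range. The 5 other DXS transcripts were listed lower in daughter root, with a median log2 ratio of -1.05. Of these, 4 passed 1.5-fold, on only 1 to 11 daughter root fragments each. The ratio of the fifth, TR44886|c0_g1_i2, was 0.641 with limits from 0.395 to 1.03. DXR was also lower in daughter root, at 0.505 (0.448 to 0.569) of its mother root level. TR54749|c2_g1_i1 was therefore the only one of the 8 DXS transcripts whose daughter root level lay above that of mother root beyond counting error, a position it was chosen for. With median-of-ratios factors, which raised daughter root over mother root by 0.21 on the log2 scale for every transcript, the same held for TR46556|c4_g1_i1 at 1.19.

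Likeness of organ profiles was measured as the percentage of summed FPKM that would have to move between tissues to turn one profile into the other, among the 23179 transcripts that reached an FPKM of 5 in any library and at least 100 fragments in all. It is a description over 4 libraries. TR46556|c4_g1_i1 and TR54754|c2_g1_i2, with 83.2% and 93.5% of their summed FPKM in leaf, differed by 10.4%. TR54749|c2_g1_i1, with 41.5% in the daughter root, differed from them by 59.2% and 69.6%. The leaf transcripts were much closer to each other than either was to TR54749|c2_g1_i1. However, the leaf pair was chosen for a leaf maximum and TR54749|c2_g1_i1 for a daughter root maximum. The distances use those same levels, so nothing is read from their order.

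In the pathway table, the profile nearest to TR46556|c4_g1_i1 was that of TR51056|c0_g1_i1, a geranylgeranyl pyrophosphate synthase (GGPPS) that makes the C20 precursor of diterpenes, at 8.16%. Its FPKM was 28.0 in the leaf, 2.92 in the mother root, 4.08 in the daughter root and 1.16 in the rootlet. TR54754|c2_g1_i2 followed at 10.4% and ISPH at 25.0%. The nearest to TR54754|c2_g1_i2 were TR46556|c4_g1_i1, the same GGPPS at 16.1% and ISPH at 35.4%. For TR54749|c2_g1_i1, the nearest were the ISPD transcripts TR39144|c0_g1_i1 at 2.21% and TR39144|c0_g1_i2 at 5.51%, then TR52617|c1_g1_i4, a phosphomevalonate kinase of the cytosolic mevalonate pathway, at 6.23%. TR39144|c0_g1_i1 had an FPKM of 9.42 in the leaf, 9.41 in the mother root, 18.65 in the daughter root and 5.18 in the rootlet. Each of these profiles had its maximum in the same tissue as the DXS transcript it was nearest to, as follows from nearness on these shares.

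**Figure D5:**
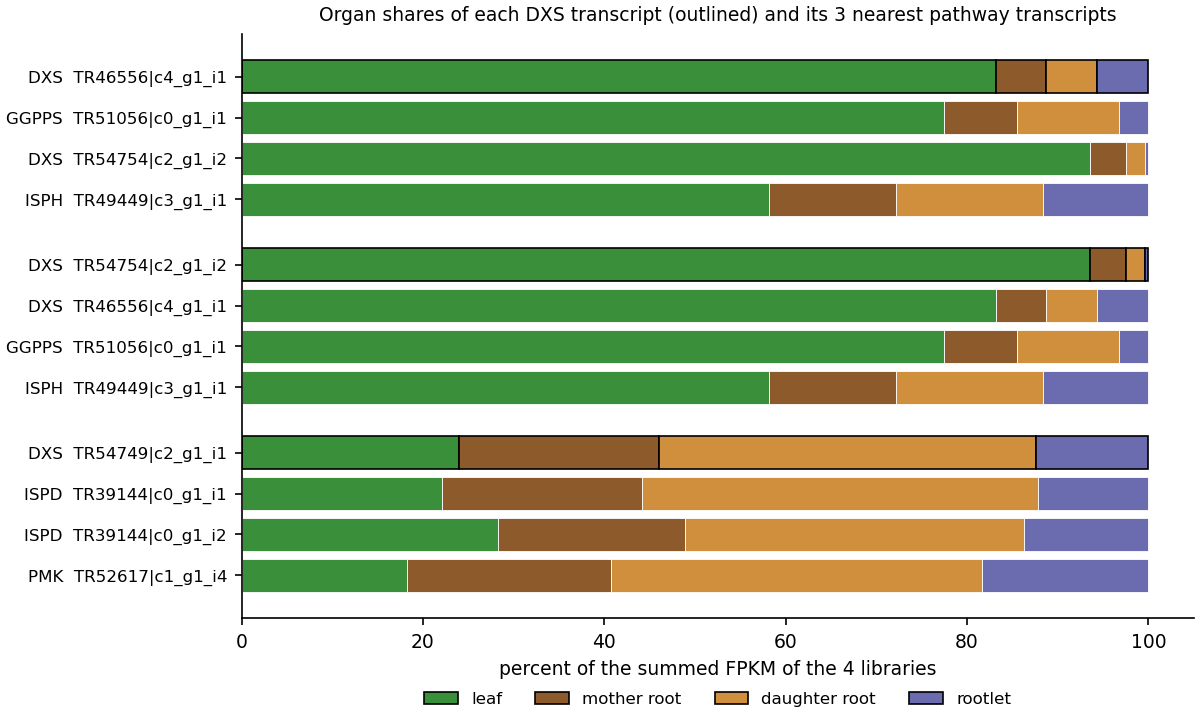
Share of each tissue in the FPKM summed over the 4 libraries, in percent, for each DXS transcript (outlined) and the 3 pathway transcripts nearest to it. Leaf holds 83.2% of TR46556|c4_g1_i1 and 93.5% of TR54754|c2_g1_i2, and daughter root holds 41.5% of TR54749|c2_g1_i1, whose bars resemble those of both ISPD transcripts.

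Other transcripts of the assembly had profiles like these. Within 5% of the organ shares lay 124 of the 23179 transcripts (0.535%) for TR46556|c4_g1_i1, 230 (0.992%) for TR54754|c2_g1_i2 and 109 (0.470%) for TR54749|c2_g1_i1. Only 258 of the 23179 transcripts had a description in the annotation used here. Among these, the nearest to TR46556|c4_g1_i1 were a chloroplastic FTSH 2 zinc metalloprotease (TR16309|c0_g2_i1, 3.37%), a protease that renews photosystem II in Arabidopsis, a transcript named only for an anonymous pine locus (TR16594|c0_g1_i1, 5.99%) and a ferredoxin family transcript (TR14207|c0_g1_i1, 6.52%). The nearest to TR54754|c2_g1_i2 were a rhodanese-like domain transcript (TR14584|c0_g1_i1, 1.62%), a defensin (TR15507|c0_g1_i1, 3.75%) and ferredoxin-NADP reductase (TR14663|c0_g1_i1, 4.13%), the enzyme that passes photosynthetic electrons to NADP. For TR54749|c2_g1_i1, ISPD TR39144|c0_g1_i1 was again the nearest, followed by an acyl oxidase (TR17482|c0_g1_i1, 4.32%) and a hypersensitive-induced response transcript (TR15049|c0_g2_i1, 4.44%).

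The leaf label was set against 12 transcripts annotated to photosystems, chlorophyll-binding proteins or Rubisco. Their summed FPKM was 432.5 in the leaf, 1.29 in the mother root, 1.07 in the daughter root and 1.13 in the rootlet, but 9 of them had been listed by the study for being at 0 in the roots. Of the 3 others, the photosystem II cytochrome b559 transcript TR836|c0_g1_i1 was at 23.7 in the leaf and at 0, 0.19 and 0 in the roots in the same order, TR12495|c0_g1_i1 was at 2.18 in the leaf and at most 0.50 in a root, and Rubisco activase TR17798|c0_g1_i1 was at 0.69 to 0.79 in all tissues with 1 to 3 fragments each.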

How the data were processed

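A strand-specific library was sequenced for each of the 4 tissues of *A. japonicum*. The authors trimmed reads with Trimmomatic, assembled all tissues with Trinity, removed redundancy with CD-HIT-EST, aligned reads with Bowtie 2 and ran RSEM. The deposited tables give, per transcript, the expected count of fragments (all whole numbers), TPM, FPKM, the length, and the isoform percentage (percent of the gene), which was 0 or 100 throughout and was not used. FPKM was analysed as deposited, without further normalization.

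Python 3.11.15, numpy 2.4.6, pandas 2.3.3, scipy 1.17.1 and matplotlib 3.10.9 were used. With 1 library per tissue, no test was made. Limits at 95% were computed from fragment counts, using effective counts for means and sums. Only those for leaf over the mean of the roots were checked on simulated data. The simulated counts were Poisson, as the limits assume, for transcripts with a mean root FPKM of at least 5. Limits for sums over transcripts, shares and very small counts were not checked in this way. The 3 transcripts and all lists were chosen with earlier results of these data known. Named were the 3 transcripts, those sharing their TR number that reached 5 FPKM, and the 15 other MEP transcripts of the study's pathway table. Also named, for each of the 3, were the 3 nearest profiles in that table and among annotated transcripts. The annotation tables held here are shortened.

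Alternatives were TPM, median-of-ratios factors over 35605 transcripts, sums per Trinity gene, leaving out each root library, a pseudocount of 0.1, other filters and other DXS sets. The factors were 0.980 in the leaf, 1.09 in the mother root, 0.947 in the daughter root and 0.969 in the rootlet. The evenness of root levels under other scalings, and DXS sums without each root library or over longer transcripts, were added after the data were seen. For 1000 bases of effective length, 3 fragments equal an FPKM of 0.664 in the leaf, 0.254 in the mother root, 0.235 in the daughter root and 0.668 in the rootlet. Sequences, genome positions and the metabolome were not analysed here.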

Additional observations from a re-analysis of the deposited data

How the results depend on the processing

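Of 102 values under alternatives, 72 stayed within their counting limits, or within 1.5 times for counts and percentages of transcripts. Some of the 72 could not move, so this tally does not measure robustness. TPM and the median-of-ratios factors scale a library as a whole, which leaves a share within that library unchanged apart from rounding. Sums per Trinity gene left TR46556|c4_g1_i1 and TR54754|c2_g1_i2 unchanged, as their Trinity genes held no other transcript. Of 38 ratios under alternatives, 2 crossed 1, namely leaf over the mean of the roots for TR54749|c2_g1_i1 without daughter root (from 0.945 to 1.39) and for the sum of the 5 other DXS transcripts without rootlet (from 0.643 to 1.01). For that sum the leave-one-out range was 0.479 to 1.01, for the 8 DXS transcripts 6.53 to 8.23 and for the 3 described 12.0 to 14.7, and over DXS of at least 900 bases the ratio was 10.5 for all and 0.932 for the others. Leaf over the mean of the roots was 13.0 with TPM for TR46556|c4_g1_i1 and 14.7 to 14.9 when each root library was left out in turn. The same leave-one-out ranges were 30.5 to 74.4 for TR54754|c2_g1_i2 and 0.753 to 1.39 for TR54749|c2_g1_i1. Daughter root over mother root was 1.19 with median-of-ratios factors for TR46556|c4_g1_i1, whose highest root was then also 1.19 times its lowest. Relative to FPKM, TPM shifted the ratio of leaf to mother root, daughter root and rootlet by -0.21, -0.18 and -0.17 on the log2 scale, and the factors shifted daughter root over mother root by 0.21 and leaf over mother root by 0.16. The share of summed DXS held by the 3 transcripts became 98.0% in the leaf, 78.8% in the mother root, 89.3% in the daughter root and 62.3% in the rootlet among DXS of at least 900 bases, and 98.8%, 82.2%, 93.5% and 67.0% by fragments.

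The percentage of all transcripts at least 4-fold higher in leaf was 22.5% with a pseudocount of 0.1, 6.14% with at least 100 fragments and 5.9% with at least 1000 bases, and 11.5% to 13.1% in leave-one-out. At least 4-fold lower in leaf were 26.4% with a pseudocount of 0.1 and 12.7% with at least 100 fragments, and 4.35% to 7.0% in leave-one-out. Among the 15 other MEP transcripts, those at least 4-fold higher numbered 0 with TPM and 0 to 1 in leave-one-out, and those at least 4-fold lower numbered 2 with a pseudocount of 0.1 and 0 to 1 in leave-one-out. The cause of these shifts was not tested. No paired analysis was possible because each tissue had a single library. Depth limits the rootlet level of TR54754|c2_g1_i2, which rests on 3 fragments, and the short DXS transcripts.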
